A study of Homo sapiens with 9 samples.

Results

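The p53 pathway and the DNA damage response were followed through 35 listed genes, matched by symbol. The list was chosen with earlier results of these data known. The list spans the brakes on p53, its targets in cell cycle arrest, death and repair, the damage kinases, and genes of recombination and end joining. The gene of p53 itself is not on it. Of the 35 genes, 30 were tested among 12239 genes. Of the remaining 5, GADD45G lay below the brightness filter explained below, TNFRSF6B was read only by probe sets that the annotation gives to 2 genes, so no value is reported for it, and FDXR, BRCA2 and FANCD2 were not analysed here.

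Messenger RNA was measured on 9 one-colour Affymetrix arrays in 3 groups of 3. The tested cultures received biomineralized insulin or soluble insulin at 40 ug/ml for 4 h, and the controls received plain medium (DMEM). All groups were kept in serum-free medium overnight before that, and the protocols describe all of them as R-HepG2, an insulin-resistant form of the hepatoma line HepG2, although the cell line tag of the treated samples reads HepG2. The sources used here do not say how resistance was produced. No group received the mineral part of the preparation without insulin. Whether replicates were separate cultures is not stated, and the p-values therefore reflect only the variation among the arrays at hand, which may be technical.

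The labelled cell type was set against 20 hepatocyte and hepatoma markers, of which 18 had a probe set and 12 lay below the brightness filter of 4.74 log2. ALB, the albumin gene, averaged 3.41 log2 with biomineralized insulin, 3.49 with insulin and 3.28 in medium. AFP, alpha-fetoprotein, averaged 2.93, 2.87 and 3.00 in the same order, and APOB, APOH, SERPINA1 and the fibrinogen genes also lay below the filter. The 6 markers above the filter were CPS1, a urea cycle enzyme, at 13.00, 13.16 and 13.17, and APOA1, TF, TTR, FOXA2 and AHSG, whose means over all arrays lay between 4.86 and 5.87 log2. With 12 of 18 markers below the filter, the groups are called here by their treatment. Of 8 lung epithelium markers 4 lay above the filter, with list medians of 4.88, 4.78 and 4.73 log2 with biomineralized insulin, with insulin and in medium, of 6 fibroblast markers 5 (5.93, 6.02 and 6.02), of 3 endothelial markers 3 (5.41, 5.26 and 5.26), of 3 squamous markers with a probe set 3 (5.13, 5.10 and 5.09), and of 4 immune markers 1 (2.92, 2.98 and 2.90). Their part in the results was not tested.

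Arrays of one group correlated at 0.998 across probe sets. Poly-A controls, which are bacterial RNAs spiked into each sample, averaged 7.80 ± 0.17 log2 with biomineralized insulin, 7.39 ± 0.06 with insulin and 7.36 ± 0.08 in medium (SD, n = 3). Centring the arrays on these controls shifted the median gene by -0.44 log2 in biomineralized insulin against medium. Every rise and fall below is therefore relative, on the scale of the deposited values. The median gene stood there at 0.02 log2 in biomineralized insulin against medium. Values under that centring are given beside most members whose call or direction it changed. Actin probe sets at the 3' end exceeded those at the 5' end, a measure of RNA quality, by 3.07 ± 0.10 log2 with biomineralized insulin, 3.19 ± 0.08 with insulin and 3.02 ± 0.06 in medium (SD, n = 3). For GAPDH the same difference was 0.198 ± 0.020, 0.166 ± 0.004 and 0.161 ± 0.036 log2 in that order (SD, n = 3).

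The transcription factor p53 is made all the time and destroyed all the time: MDM2 marks it for degradation and MDM4 masks its activation domain. Damaged DNA activates the kinases ATM and ATR, which pass the signal through CHEK2 and CHEK1, p53 escapes its brakes, and its targets halt the cell cycle, repair the lesion or start cell death. Several of these targets answer to other stress factors as well. GADD45A and PMAIP1, for example, are known to be induced through ATF4 when cells are short of amino acids or burdened with unfolded protein.

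Promoter sequence is shown for the members with the largest falls and the largest rise under biomineralized insulin that have an entry in the RefSeq promoter table (GRCh38.p14), namely PMAIP1, GADD45B and PLK2. GADD45A, which fell most, has no entry. The last 150 bases before the annotated start are given 5′ to 3′, from chr18:59899846-59899995 on the plus strand, chr19:2475977-2476126 on the plus strand and chr5:58460087-58460236 on the minus strand. Capitals mark the motifs searched for on both strands: the cyclic AMP response element core TGACGT (read as ACGTCA on the other strand, in PMAIP1), the CCAAT box (in GADD45B), and in PLK2 the consensus p53 half-site followed by a TGACGT core.
PMAIP1: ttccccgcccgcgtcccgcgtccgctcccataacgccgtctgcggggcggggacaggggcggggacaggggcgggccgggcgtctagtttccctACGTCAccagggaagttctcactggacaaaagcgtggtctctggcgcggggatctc
GADD45B: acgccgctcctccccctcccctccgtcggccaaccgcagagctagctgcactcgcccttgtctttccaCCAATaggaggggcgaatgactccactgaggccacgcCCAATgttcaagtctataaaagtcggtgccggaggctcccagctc
PLK2: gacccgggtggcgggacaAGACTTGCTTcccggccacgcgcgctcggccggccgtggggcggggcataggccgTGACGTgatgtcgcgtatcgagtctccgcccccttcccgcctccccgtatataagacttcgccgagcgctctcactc

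Within 250 bases before the start, 25 of the 30 tested members had an entry. A member was counted if any of its entries held the motif, and some members have several. The shares beside the counts are per single entry, so the units differ. The TGACGT core stood in 4 of 13 members that fell with biomineralized insulin (PPM1D, PMAIP1, BRCA1 and RAD51C), in 1 of 7 that rose (PLK2) and in 3 of 5 that were not called, against 7.1% of 35116 promoter entries. The p53 half-site stood in 2 of 7 that rose (PLK2 and AEN), in 0 of 13 that fell and in 0 of 5 not called, against 5.57% of entries. CCAAT stood in 8 of 13, 4 of 7 and 3 of 5, against 32% of entries. The ATF4-type composite element, searched as TGATGNAA, stood only in PLK3 among these members, against 3.14% of entries. A heat shock element of 3 units, searched on both strands, stood in 0 of these members, against 0.441% of entries. A match describes letters in this window and is not evidence of binding.

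Soluble insulin against medium asked whether the hormone alone moves these transcripts. GADD45A, a stress sensor that binds cell cycle and repair proteins, read 9.74, 9.74 and 9.68 log2 with insulin, against 10.02, 10.06 and 10.00 in medium. All insulin arrays lay below all medium arrays, and GADD45A fell by 0.31 ± 0.04 log2 (SE, 3 arrays against 3, adjusted p = 0.0023, limma with Benjamini-Hochberg adjustment over all genes tested). RAD51C, a gene of homologous recombination, read 10.43, 10.48 and 10.43 log2 with insulin, against 10.57, 10.64 and 10.56 in medium. It fell by 0.15 ± 0.04 (adjusted p = 0.044), and the call was lost in 16 of 21 alternatives, among them leaving out any single array except insulin replicate 2 (adjusted p = 0.056 to 0.21). These 2 were the members called, 6.67% of 30, against 2.45% of all genes tested. Both fell, against 1.2% of all genes that fell, 0 rose, against 1.25%, and 6 of 30 members had an unadjusted p under 0.05, against 1928 of 12239 genes.

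The other 28 members lay between -0.14 and 0.22 log2 with insulin. The ends of that range were DDB2, a damage-recognition subunit, at -0.14 ± 0.06 (adjusted p = 0.26), and BBC3, which encodes the death protein PUMA, at 0.22 ± 0.11 (adjusted p = 0.35). PLK2, a polo-like kinase, stood at 0.19 ± 0.06 (adjusted p = 0.13). It passed the threshold without medium replicate 1, at 0.25 (adjusted p = 0.048), and with array weights, at 0.24 (adjusted p = 0.031). CDKN1A, which encodes the arrest protein p21, read 10.25, 10.37 and 10.27 with insulin, against 10.27, 10.32 and 10.32 in medium, so the groups overlapped.

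Biomineralized insulin against medium moved far more of them, in both directions. GADD45A and PMAIP1 fell more than 4-fold, GADD45B, DDB2, BRCA1 and RAD51C by 1.53- to 1.88-fold, and PLK2, POLH and ZMAT3 rose by 1.6- to 1.91-fold. Of 30 members 22 were called, 73.3%, against 50.9% of all genes tested. Of these 14 fell (46.7%, against 25.2% of all genes) and 8 rose (26.7%, against 25.7%). The median difference of the members was -0.08 log2, against 0.02 for all genes, and the median size without regard to sign was 0.34, against 0.16. After spike-in centring 21 of 30 members fell and 2 rose, against 9347 and 197 of 12239 genes tested.

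**Figure D1:**
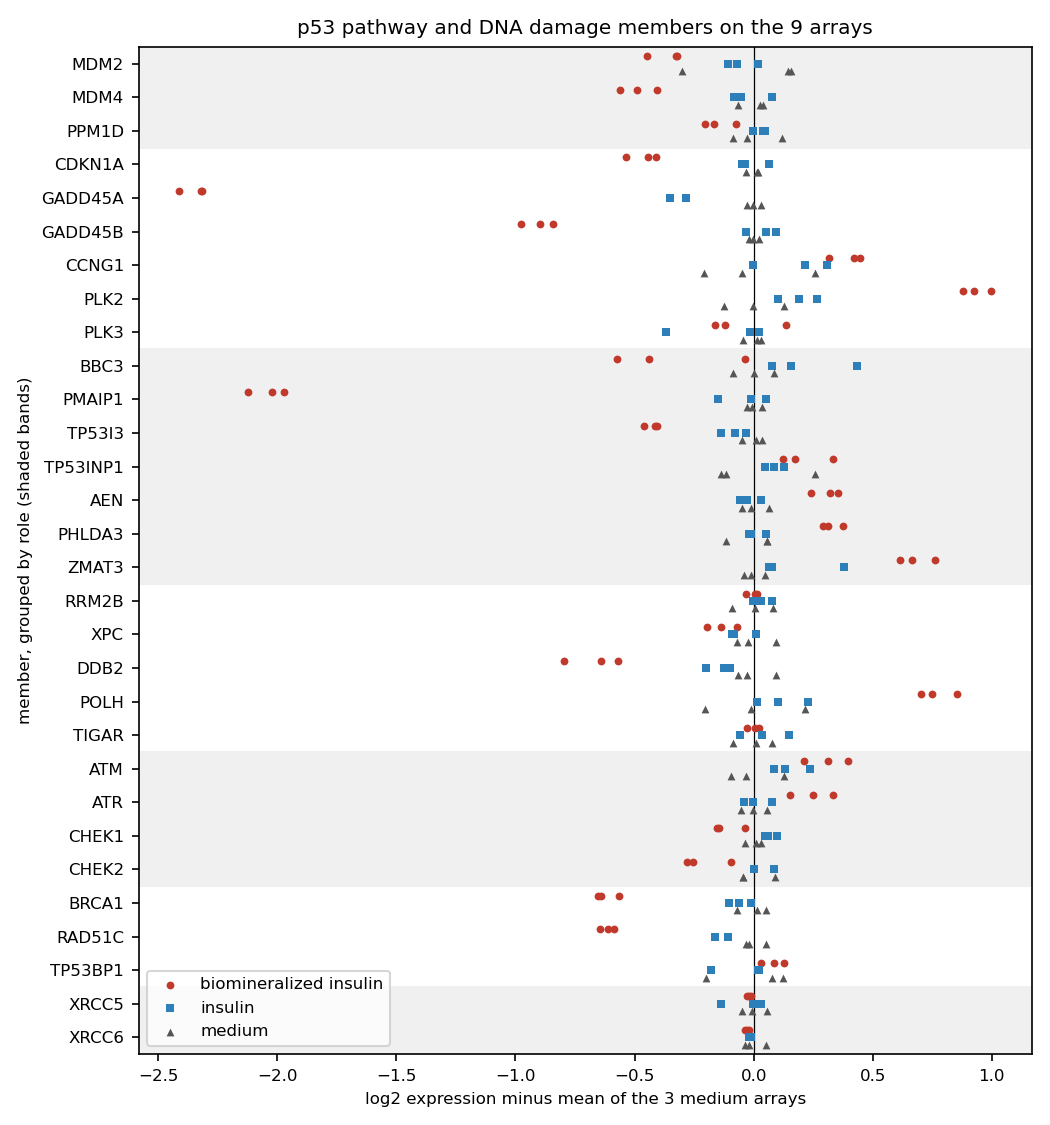
Log2 expression of each tested member on each of the 9 arrays, minus the mean of the 3 medium arrays, with members grouped by role; circles are biomineralized insulin, squares insulin and triangles medium. By the test 14 members are lower and 8 higher with biomineralized insulin than in medium, with GADD45A at -2.35 and PMAIP1 at -2.04. The insulin squares lie near the medium triangles. Under spike-in centring CCNG1, AEN, PHLDA3, ATM and ATR turned to below medium, none of them with a call.

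All 3 brakes on p53 were called lower, against 25.2% of all genes tested. Only MDM4 kept its direction in every alternative, as MDM2 and PPM1D turned with the probe set. MDM2, the ubiquitin ligase that degrades p53 and is itself a p53 target, read 7.57, 7.69 and 7.70 log2 with biomineralized insulin, against 8.16, 8.18 and 7.72 in medium. Medium replicate 3 lay close to the treated arrays, although the groups did not overlap, and the difference was -0.37 ± 0.09 (adjusted p = 0.0035). MDM2 was not uniform over its probe sets: of 4 above the filter 3 pointed down and 1 stood at 0.013. That one was the brighter of the 2 left when cross-hybridizing probe sets were excluded (adjusted p = 0.91), and the other of these stood at -0.29.

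MDM4, a partner of MDM2 that blocks p53 without degrading it, read 8.60, 8.51 and 8.44 with biomineralized insulin, against 9.03, 9.04 and 8.93 in medium. It fell by 0.49 ± 0.05 (adjusted p = 1.3e-06), and all 5 of its brighter probe sets pointed down, the weakest at -0.12. PPM1D, the phosphatase WIP1 that switches off the damage signal, read 9.08, 9.21 and 9.12, against 9.41, 9.26 and 9.20 in medium, with overlap between the groups. Its fall of 0.15 ± 0.05 (adjusted p = 0.026) was the smallest of the 3, 2 of its 4 probe sets pointed up, and the call was lost without biomineralized insulin replicate 1 or 3 (adjusted p = 0.11 and 0.074) and without medium replicate 1 (0.15).

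Among the arrest genes the GADD45 family stood out. GADD45A read 7.61, 7.71 and 7.71 log2 with biomineralized insulin, 9.74, 9.74 and 9.68 with insulin and 10.02, 10.06 and 10.00 in medium. No array of the treated group came within 1 log2 unit of any other, and GADD45A fell by 2.35 ± 0.04 (5.09-fold, adjusted p = 3.6e-16), ranking 16 among 12239 genes by size of fall. A single probe set reads it. GADD45B, a paralogue known for its induction by TGF-beta and NF-kB, read 9.30, 9.22 and 9.35, against 10.19, 10.18 and 10.22 in medium. It fell by 0.91 ± 0.04 (1.88-fold, adjusted p = 5.0e-11) in all 4 probe sets, 2 of them by 0.16 and 0.24 log2. GADD45G averaged 3.09 ± 0.01 log2 with biomineralized insulin, 3.13 ± 0.11 with insulin and 3.10 ± 0.18 in medium (SD, n = 3), below the filter in every group, and was not tested.

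CDKN1A, the classical p53 target that inhibits cyclin-dependent kinases, read 9.89, 9.77 and 9.86 log2 with biomineralized insulin, against 10.27, 10.32 and 10.32 in medium. It fell by 0.46 ± 0.04 (1.38-fold, adjusted p = 1.2e-07), and its second probe set stood at -0.39. PLK2 went the other way, at 9.28, 9.32 and 9.40 with biomineralized insulin, against 8.53, 8.27 and 8.40 in medium. PLK2, a p53-inducible kinase of centriole duplication, rose by 0.93 ± 0.06 (1.91-fold, adjusted p = 2.5e-09), the largest rise among the members tested. All 3 probe sets above the filter pointed up. The tested one and another at 0.62 were open to cross-hybridization, and the remaining one stood at 0.40. In the tested probe set 0.49 was left after spike-in centring.

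CCNG1, cyclin G1, which recruits a phosphatase to MDM2, read 9.77, 9.90 and 9.87 with biomineralized insulin, against 9.71, 9.40 and 9.24 in medium. It rose by 0.40 ± 0.09 (adjusted p = 0.0018) in all 5 probe sets but stood at -0.046 after spike-in centring, and without cross-hybridizing probe sets the value was 0.18 and the call was lost (adjusted p = 0.13). PLK3, a stress-activated kinase of the same family as PLK2, was not called, at -0.05 with a 95% interval from -0.27 to 0.17, but stood at -0.49 after spike-in centring (adjusted p = 0.00069).

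**Figure D2:**
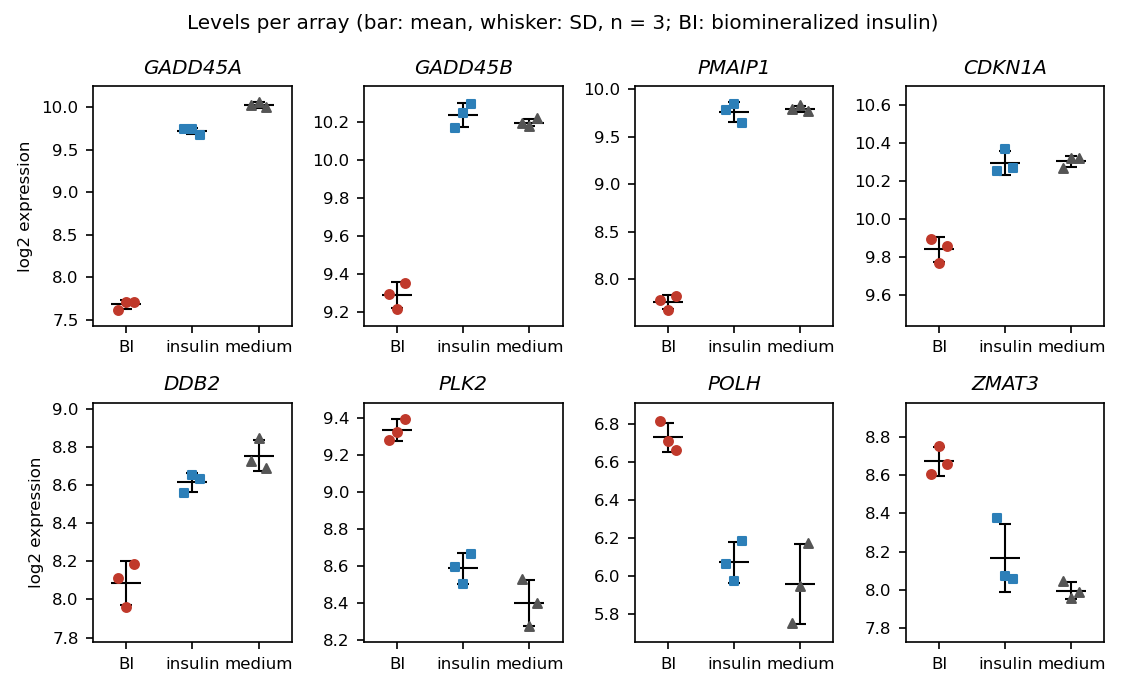
Log2 expression of 8 members on each array, with biomineralized insulin (BI) left, insulin in the middle and medium right; horizontal bars are means and whiskers SD (n = 3), and each panel has its own axis. GADD45A is also lower with insulin than in medium, at 9.72 against 10.03 on average, whereas insulin and medium arrays overlap for GADD45B, PMAIP1, CDKN1A, PLK2 and POLH.

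The death genes split. PMAIP1 encodes NOXA, a BH3-only protein that neutralizes MCL1, and read 7.77, 7.67 and 7.82 log2 with biomineralized insulin, 9.79, 9.85 and 9.65 with insulin and 9.79, 9.83 and 9.77 in medium. PMAIP1 fell by 2.04 ± 0.05 against medium (4.11-fold, adjusted p = 3.3e-14), the second largest fall among the members, and its other probe set stood at -1.85. BBC3, the other BH3-only gene, read 7.82, 7.42 and 7.28, against 7.77, 7.94 and 7.86 in medium, so biomineralized insulin replicate 1 lay inside the medium range. Its fall of 0.35 ± 0.11 (adjusted p = 0.015) was lost without biomineralized insulin replicate 2 or 3 (adjusted p = 0.07 and 0.099) and without medium replicate 2 (0.067). TP53I3, an oxidoreductase gene linked to reactive oxygen, read 8.73, 8.67 and 8.72, against 9.14, 9.17 and 9.09 in medium, and fell by 0.43 ± 0.04 (adjusted p = 5.1e-07).

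ZMAT3, an RNA-binding zinc finger protein of the p53 programme, read 8.61, 8.76 and 8.66 with biomineralized insulin, against 8.04, 7.96 and 7.99 in medium. ZMAT3 rose by 0.68 ± 0.07 (1.6-fold, adjusted p = 7.0e-07), but this rests on a probe set open to cross-hybridization: the other one stood at 0.068 (adjusted p = 0.65 when used alone), and after spike-in centring the value was 0.24 (adjusted p = 0.059). PHLDA3, which restrains AKT at the membrane, rose by 0.33 ± 0.06 (adjusted p = 0.00012) and AEN, an apoptosis-linked nuclease gene, by 0.30 ± 0.05 (adjusted p = 0.00014), although both turned negative after spike-in centring, at -0.12 and -0.14. For both genes all biomineralized insulin arrays lay above all medium arrays, PHLDA3 at 8.20 to 8.28 against 7.79 to 7.96 and AEN at 8.04 to 8.16 against 7.75 to 7.87. TP53INP1, a stress protein that promotes p53 phosphorylation, was not called, at 0.21 with a 95% interval from -0.006 to 0.42. It passed without medium replicate 3, at 0.34 (adjusted p = 0.0045), and with array weights, at 0.26 (adjusted p = 0.024).

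Repair targets of p53 also moved apart. DDB2, which recognizes ultraviolet lesions for nucleotide excision repair, read 8.11, 7.96 and 8.19 log2 with biomineralized insulin, 8.56, 8.66 and 8.63 with insulin and 8.73, 8.85 and 8.69 in medium. The 3 groups did not overlap, DDB2 fell by 0.67 ± 0.06 against medium (1.59-fold, adjusted p = 1.1e-07), and its second probe set stood at -0.55. POLH, a DNA polymerase that copies past such lesions, read 6.81, 6.71 and 6.66, against 5.75, 5.95 and 6.18 in medium. POLH rose by 0.77 ± 0.09 (1.7-fold, adjusted p = 3.8e-06) in all 4 probe sets, the weakest at 0.067, and 0.33 was left after spike-in centring (adjusted p = 0.019).

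XPC, RRM2B and TIGAR were not called. XPC, the partner of DDB2 in lesion recognition, stood at -0.13 with a 95% interval from -0.26 to -0.011 (adjusted p = 0.065). It passed the threshold without biomineralized insulin replicate 3 and without medium replicate 1, at -0.17 in both (adjusted p = 0.047 and 0.039). RRM2B, a ribonucleotide reductase subunit that supplies nucleotides for repair, had an interval from -0.12 to 0.11, and TIGAR, a phosphatase that diverts sugar away from glycolysis, one from -0.12 to 0.12. The other RRM2B probe set above the filter stood at -0.21 and was called lower when it stood for the gene (adjusted p = 0.048). After spike-in centring all 3 were called lower than in medium, XPC at -0.575 (adjusted p = 9.6e-06), RRM2B at -0.44 (0.00069) and TIGAR, whose direction turned, at -0.44 (0.00045).

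The damage kinases moved by small amounts, in different directions. CHEK2, the kinase below ATM, read 8.25, 8.28 and 8.44 log2 with biomineralized insulin, against 8.62, 8.49 and 8.49 in medium, and fell by 0.21 ± 0.06 (adjusted p = 0.0053), while its other probe set stood at 0.020. Both CHEK2 probe sets are open to cross-hybridization, and with their mean the call was lost, at -0.0955 (adjusted p = 0.2). CHEK1, the kinase below ATR, fell by 0.11 ± 0.04 (adjusted p = 0.033) in all 6 probe sets, to -0.49 in one of them, and the call was lost without biomineralized insulin replicate 1 or 2 (adjusted p = 0.12 for both) and without medium replicate 1 or 2 (0.074 and 0.12). ATR, read by a single probe set, rose by 0.24 ± 0.06 (adjusted p = 0.0017) but stood at -0.20 after spike-in centring. ATM rose by 0.31 ± 0.06 in its brightest probe set (adjusted p = 0.00074), whereas its other 3 pointed down, to -0.33, and after spike-in centring it stood at -0.13, so its direction depends on the probe set and on the scale.

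Of the recombination genes BRCA1 and RAD51C fell, and TP53BP1 and the end joining genes were not called. BRCA1, which directs broken ends into recombination, read 8.92, 8.84 and 8.85 log2 with biomineralized insulin, against 9.50, 9.54 and 9.42 in medium. It fell by 0.62 ± 0.04 (1.54-fold, adjusted p = 8.1e-09), and its other 3 brighter probe sets fell further, to -0.84. RAD51C read 9.94, 10.00 and 9.98, against 10.57, 10.64 and 10.56 in medium, and fell by 0.61 ± 0.04 (1.53-fold, adjusted p = 6.3e-10) in all 3 brighter probe sets. TP53BP1, which steers ends away from recombination, was at 0.08 with a 95% interval from -0.10 to 0.26, or -0.36 after spike-in centring (adjusted p = 0.0083). XRCC5 and XRCC6 encode the Ku80 and Ku70 subunits that cap broken ends for joining. XRCC6 read 12.69, 12.70 and 12.71 with biomineralized insulin, against 12.78, 12.69 and 12.71 in medium, and the 95% intervals were -0.083 to 0.028 for XRCC6 and -0.11 to 0.066 for XRCC5. After spike-in centring both stood lower than in medium, at -0.47 and -0.46.

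**Figure D3:**
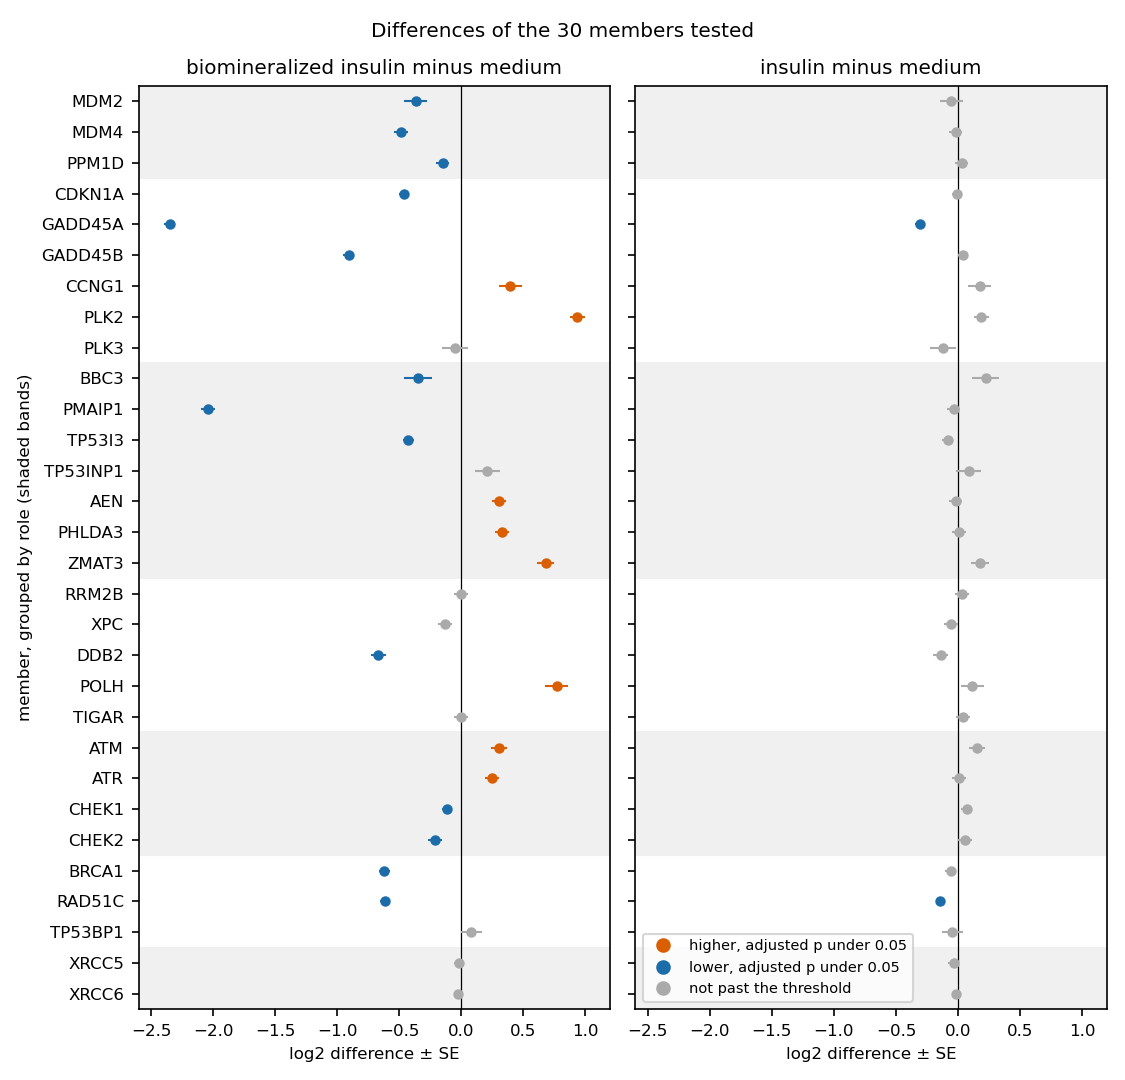
Log2 differences (± SE) of the 30 tested members from medium, with biomineralized insulin on the left and insulin on the right; orange marks adjusted p under 0.05 and higher, blue lower, grey not past the threshold. The left panel holds 14 blue and 8 orange members and the right panel 2 blue ones, GADD45A and RAD51C. Both panels share the medium arrays. After spike-in centring CCNG1, AEN, PHLDA3, ATM and ATR turned negative on the left, none of them with a call.

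**Figure D4:**
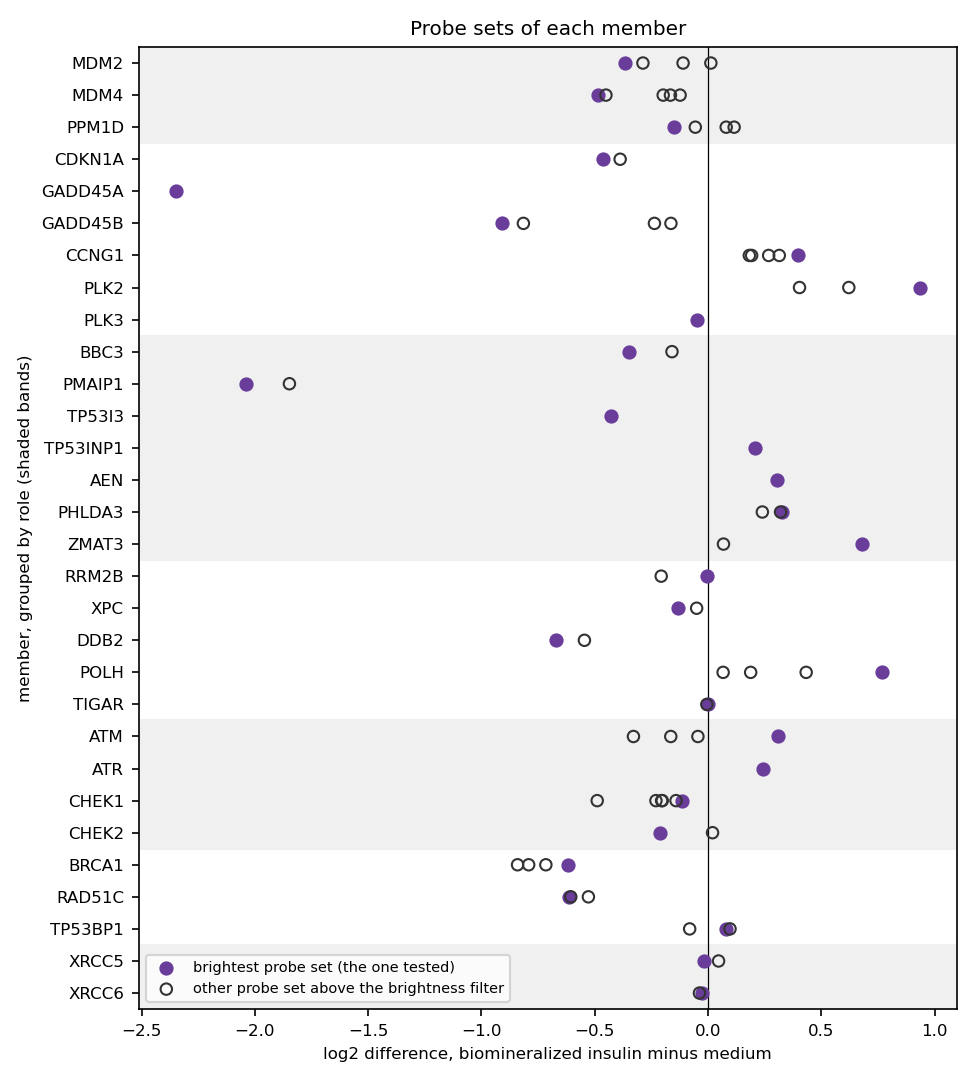
Log2 difference, biomineralized insulin minus medium, for each probe set above the brightness filter; filled points are the brightest probe set of a member, which was tested, and open points the others. Of 24 members with more than 1 such probe set 17 had all of them on the same side of 0, and ATM, PPM1D, MDM2 and CHEK2 are called members with points on both sides.

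Biomineralized insulin against insulin is the direct test of the difference between the preparations at 40 ug/ml. Of 30 members 20 were called, 66.7%, against 44.4% of all genes tested: 14 were lower (46.7%, against 23.3%) and 6 higher (20%, against 21.1%). GADD45A stood at -2.04 ± 0.04 log2 (4.12-fold lower, adjusted p = 1.9e-15), PMAIP1 at -2.01 ± 0.05 (4.02-fold lower, adjusted p = 5.5e-14) and GADD45B at -0.95 ± 0.04 (1.93-fold lower, adjusted p = 4.3e-11). BBC3 read 7.82, 7.42 and 7.28 log2 with biomineralized insulin, against 8.01, 8.29 and 7.93 with insulin. These did not overlap, and BBC3 stood at -0.57 ± 0.11 (1.49-fold lower, adjusted p = 0.00047). The call was kept in all 21 alternatives, but the other BBC3 probe set above the filter stood at -0.033 against insulin and -0.16 against medium. BRCA1, DDB2, RAD51C, MDM4 and CDKN1A were lower too, between -0.56 and -0.46 log2.

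Higher with biomineralized insulin than with insulin were PLK2, by 0.75 ± 0.06 (1.68-fold, adjusted p = 5.2e-08), POLH, by 0.65 ± 0.09 (adjusted p = 2.8e-05), and ZMAT3, by 0.51 ± 0.07 (adjusted p = 2.3e-05). After spike-in centring POLH stood at 0.24 (adjusted p = 0.082) and ZMAT3 at 0.093 (adjusted p = 0.46). ZMAT3 also lost its call without cross-hybridizing probe sets, at 0.12 (adjusted p = 0.44). AEN, PHLDA3 and ATR were higher by 0.32, 0.32 and 0.23, and stood at -0.091, -0.095 and -0.18 after spike-in centring. CCNG1 and ATM, called against medium, were short of the threshold here, at 0.22 ± 0.09 and 0.16 ± 0.06 (adjusted p = 0.062 and 0.059). CCNG1 passed without insulin replicate 3, at 0.29 (adjusted p = 0.030), and ATM at 0.20 without insulin replicate 3 or 0.21 without biomineralized insulin replicate 1 (adjusted p = 0.034 and 0.031), but after spike-in centring CCNG1 turned negative without a call and ATM was called lower, at -0.26 (adjusted p = 0.041). PLK3, TP53INP1, TP53BP1 and XRCC5, not called against insulin, stood at -0.34, -0.29, -0.29 and -0.40 after that centring (adjusted p = 0.018, 0.048, 0.037 and 0.00077), where XPC, RRM2B, TIGAR and XRCC6 were also lower. The call of MDM2, at -0.31 ± 0.09 (adjusted p = 0.012), was lost without biomineralized insulin replicate 1 (0.060) and without insulin replicate 1 (0.054), as was that of PPM1D, at -0.18 ± 0.05 (adjusted p = 0.011), without biomineralized insulin replicate 1 (0.057). The comparisons of each preparation with medium share the medium arrays.

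A wider list of 45 other p53 target genes gave 39 tested genes. With biomineralized insulin against medium 12 rose (30.8%, against 25.7% of all genes tested) and 14 fell (35.9%, against 25.2%), so 66.7% were called, against 50.9%, with a median of -0.03 log2. SESN2, a sestrin that restrains mTORC1 when leucine is short, read 6.48 to 6.62 log2 with biomineralized insulin, against 8.98 to 9.12 in medium, and fell by 2.49 ± 0.06 (adjusted p = 6.3e-15). SESN1, its paralogue, rose by 0.64 ± 0.06 (adjusted p = 3.2e-07) and is named here after its values were seen. GDF15, a stress-induced secreted factor, fell by 2.44 ± 0.09 (adjusted p = 2.6e-12), and its weakest of 5 probe sets stood at -0.11. TNFRSF10D, a decoy receptor for the death ligand TRAIL, rose by 1.62 ± 0.08 (adjusted p = 6.8e-11), with its other probe set at 0.072, and STEAP3, a ferrireductase, rose by 1.09 ± 0.05 (adjusted p = 3.9e-11). With insulin against medium 1 rose, the ribosomal gene RPS27L (2.56%, against 1.25% of all genes tested), and 1 fell, GDF15 (2.56%, against 1.2%).

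A wider list of 61 other checkpoint and repair genes gave 53 tested genes, of which 23 fell (43.4%, against 25.2% of all genes tested) and 9 rose (17%, against 25.7%) with biomineralized insulin against medium, with a median of -0.10 log2. The falls were modest. USP1, the deubiquitinase of the Fanconi pathway, read 11.52, 11.50 and 11.52 log2 with biomineralized insulin, against 12.19, 12.16 and 12.14 in medium, and fell by 0.65 ± 0.03 (adjusted p = 6.7e-12). EXO1, an end-resecting nuclease, fell by 0.83 ± 0.06 (adjusted p = 9.4e-09), RAD1, of the checkpoint clamp, by 0.55 ± 0.04 (adjusted p = 5.9e-09, weakest of 6 probe sets -0.069), and FANCE, a Fanconi core subunit, by 0.56 ± 0.05 (adjusted p = 6.1e-08). With insulin against medium 0 of 53 passed in the limma fit, against 2.45% of all genes tested, and 12 had an unadjusted p under 0.05, against 1928 of 12239 genes. Neither wider list was followed under spike-in centring, which shifted the median gene by -0.44 log2 in biomineralized insulin against medium.

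**Figure D5:**
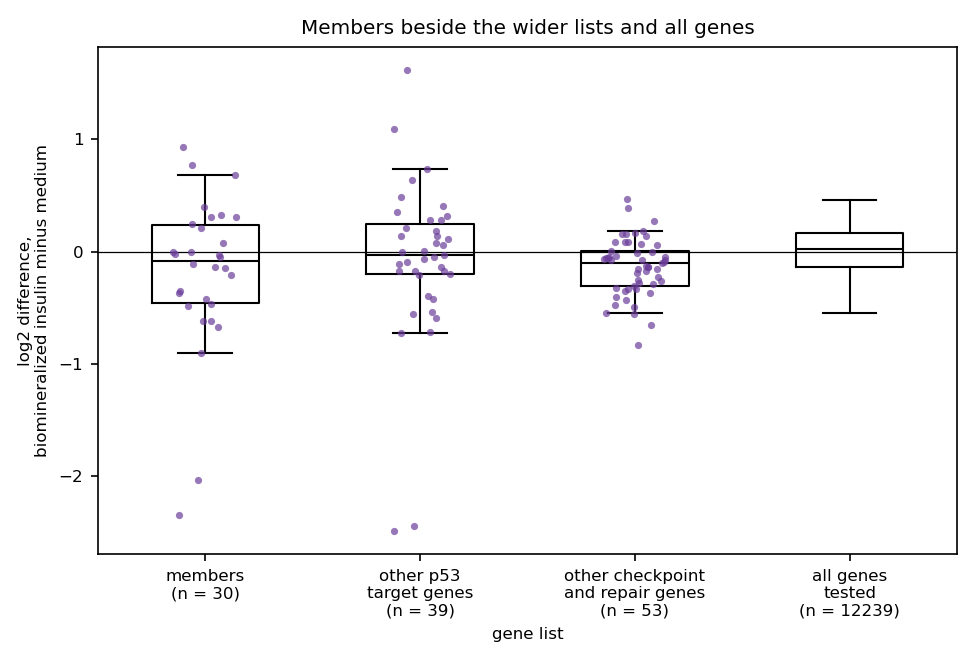
Log2 differences, biomineralized insulin minus medium, for the tested members, the 2 wider lists and all genes tested; points are genes, boxes quartiles with the median, and whiskers the 5th and 95th percentiles. The list medians are -0.08, -0.03 and -0.10, beside 0.02 for all genes, and the lowest points are GADD45A and PMAIP1 among the members and SESN2 and GDF15 among the other p53 targets.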

How the data were processed

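The series matrix holds log2 expression values per probe set as the authors deposited them (2.02 to 14.3, near-identical distributions on the 9 arrays). Their summarisation and normalization are not given in the sources used here. The kit was a 3' in vitro transcription labelling kit, per the labels' protocols. Without scanner files neither background nor detection was examined. Precision is limited by the number of arrays. The platform annotation gave 1 gene to 44988 of 49395 probe sets and several to 1832. Symbols were brought up to date by Entrez number from RefSeq (GRCh38.p14).

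A gene was represented by its brightest single-gene probe set, provided that this was not among the dimmest 40 percent of probe sets by mean (a filter of 4.74 log2). All 9 arrays entered one limma fit (limma 3.58.1, R 4.3.3, eBayes with intensity trend, 6 residual degrees of freedom), with Benjamini-Hochberg adjustment over 12239 genes and a threshold of 0.05. All members are described, and of each wider list the 4 called genes with the lowest p in biomineralized insulin against medium whose groups do not overlap. The members and lists were chosen with earlier results of these data known. Groups and replicate numbers come from the sample titles. Over same-numbered arrays the deviations correlated at -0.23 to 0.17, so numbers were not taken to pair arrays. The fit was tested on simulated data. Alternatives covered the replicate block, arrays, scaling, filter, probe set, variance model and weights. Figures used matplotlib 3.10.9.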

Additional observations from a re-analysis of the deposited data

How the results depend on the processing

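Of the 22 members called in biomineralized insulin against medium, 11 kept their call and direction under all alternatives that could test them, and of the 20 called against insulin 12 did. Neither member called in insulin against medium did: GADD45A lost its call under spike-in centring, where it stood at -0.34 (adjusted p = 1). Leaving out the dimmest 60 percent dropped TP53INP1, POLH and PLK3, and excluding cross-hybridizing probe sets dropped CHEK2 and XRCC6. Scanner files and slides were not analysed here, so background correction and slide were not varied, and dim probe sets limit GADD45G.

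In insulin against medium the number of genes changed, 300, became 177 when the most variable probe set stood for a gene, 197 after median centring, 152 in a fit of just these 6 arrays, 37 without intensity trend, 199 once cross-hybridizing probe sets were dropped, 605 with array weights and 5 (0 higher, 5 lower) after spike-in centring. Leaving out single arrays gave 57 to 425, the count being 57 for insulin replicate 3, 62 for medium replicate 2, 145 for insulin replicate 1 and 187 for medium replicate 1. The members changed, 2, were 1 under the first 5 of these settings, without a brightness filter and with the mean of probe sets, 0 with spike-in centring, and 1 to 2 when single arrays were left out. With spike-in centring the genes changed became 9544 in biomineralized insulin against medium (197 higher, 9347 lower) in place of 6230 (3140 higher, 3090 lower), and 9606 against insulin (124 higher, 9482 lower) in place of 5433 (2579 higher, 2854 lower), since the whole distribution shifts.

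With the replicate block the genes changed were 226 in insulin against medium, 6081 in biomineralized insulin against medium and 5302 in biomineralized insulin against insulin, and the members changed were 2, 22 and 20, so the block changed no count by over 1.5 times.

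Turned directions are listed only where the main fit or the alternative called the member. Under spike-in centring they turned, in biomineralized insulin against medium, for CCNG1 (-0.046), AEN (-0.14), PHLDA3 (-0.12), TIGAR (-0.44), ATM (-0.13), ATR (-0.20) and TP53BP1 (-0.36). Of these only TIGAR and TP53BP1 were called lower. Against insulin they turned for PLK3 (-0.34), TP53INP1 (-0.29), AEN (-0.091), PHLDA3 (-0.095), ATM (-0.26), ATR (-0.18), TP53BP1 (-0.29) and XRCC5 (-0.40), all called lower except AEN, PHLDA3 and ATR. They also turned with the probe set. Against medium PPM1D was at 0.080 and ATM at -0.33 with the probe set of largest variance, ATM at -0.058 with the mean of probe sets, and MDM2 at 0.013 and PPM1D at 0.12 without cross-hybridizing probe sets. Against insulin PPM1D was at 0.049 with the probe set of largest variance, and MDM2 at 0.031 and PPM1D at 0.098 without cross-hybridizing probe sets.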
